A study of Sus scrofa with 12 samples.

Results

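The genes of platelet-derived growth factor (PDGF) signaling and of pericytes were examined in the porcine heart after ischemia-reperfusion injury. The set held 10 genes chosen by symbol for their known roles and not by a threshold on their values. Earlier results of these data were known when the set and the lists below were chosen. The 10 were the ligands PDGFA, PDGFB, PDGFC and PDGFD, the receptors PDGFRA and PDGFRB, and the pericyte genes RGS5, CSPG4, KCNJ8 and ABCC9. All 10 were found among the 35682 genes of the count tables, and all 10 passed the filter that left 13844 genes for testing.

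RNA sequencing covered 12 libraries, from the border zone (6 libraries, tissue adjacent to the infarct) and the remote zone (6 libraries, posterior wall) of 6 pigs, sampled mid-ventricle on the left side. Every animal was a young female Yorkshire pig that underwent balloon occlusion of the left anterior descending artery for 60 minutes. Immunosuppression began on day 9 in all animals. Its stated daily doses, with doses later adjusted toward a target tacrolimus level, were 20 mg of prednisolone, 500 mg of mycophenolate mofetil and, per kg of body weight, 0.75 mg of tacrolimus. On day 14, each received either topical vascular organoids, made of human endothelial progenitor cells and smooth muscle cells modulated from mesenchymal stem cells, with fibrin glue, or fibrin glue alone. Which animal received which was not used here, and organoid and glue-only animals are therefore mixed in each region, with no comparison between them. Organoids were laid on the infarct and the border zones around it, and the remote zone was the posterior wall. In organoid animals, the cover and the region therefore cannot be told apart in the differences below. Values within a region are given as lowest, median and highest.

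PDGF ligands are dimeric growth factors that signal through receptor tyrosine kinases. Endothelial PDGFB recruits pericytes and smooth muscle cells, the mural cells of vessels, through PDGFRB, and PDGFA and PDGFC act mainly through PDGFRA, which in the heart marks fibroblasts. PDGFC and PDGFD are secreted in a latent form that proteases of the plasminogen activator system can open. RGS5, CSPG4, KCNJ8 and ABCC9 are used as pericyte markers, and pericytes support capillary stability and flow.

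Counts on genes summed to 15130210 to 30526110 per border zone library and to 20091415 to 31618680 per remote zone library. The lowest count of any of the 10 genes in any library was 183. Border and remote zone were set against each other with the quasi-likelihood test of edgeR, and a gene was called at a Benjamini-Hochberg adjusted p-value under 0.05 over all genes tested. Of the 13844 genes, 285 were called higher and 2 lower in the border zone, which is 2.06% and 0.0144% of those tested, and 2.07% in either direction. A pair of border zone libraries stood apart. That of animal 1022 carried the highest summed level of fibroblast and matrix markers, and that of animal 3622 had counts on 28024 genes from the smallest total, where no other library had more than 20148. Mitochondrial genes took 5.69% to 17.3% of the counts at the border and 13.6% to 33.5% in the remote wall, and the part of this in the differences below was not tested, beyond a fit without those genes in which PDGFRA was again the 1 gene of the 10 that was called.

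The largest fold changes of receptor and pericyte genes were those of CSPG4, PDGFRA and PDGFRB, and RGS5 is shown beside them as a pericyte marker with a fold change below 0 on the log2 scale. The sequences around the starts of these 4 genes are shown for reference, from 250 bases before to 50 bases after the RefSeq gene start on Sscrofa11.1, 5′ to 3′ on the strand of the gene. PDGFRA lies at chr8:40966568-41021440 on the plus strand, PDGFRB at chr2:151155753-151192818 on the minus strand, CSPG4 at chr7:57949182-57988602 on the plus strand and RGS5 at chr4:87286953-87340816 on the plus strand. The windows shown are chr8:40966318-40966617, chr2:151192769-151193068, chr7:57948932-57949231 and chr4:87286703-87287002. Capitals mark matches, on either strand, to the GC box (GGGCGG), the TEAD motif (GGAATG), the RBPJ motif (TGGGAA), the AP-1 motif (TGANTCA) and the CArG box, and no matches overlapped in these windows.
PDGFRA: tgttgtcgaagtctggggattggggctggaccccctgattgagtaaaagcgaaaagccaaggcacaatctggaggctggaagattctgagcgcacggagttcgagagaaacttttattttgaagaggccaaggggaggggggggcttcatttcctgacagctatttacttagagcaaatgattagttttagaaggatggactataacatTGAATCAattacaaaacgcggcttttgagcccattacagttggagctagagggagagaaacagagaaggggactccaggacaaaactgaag
PDGFRB: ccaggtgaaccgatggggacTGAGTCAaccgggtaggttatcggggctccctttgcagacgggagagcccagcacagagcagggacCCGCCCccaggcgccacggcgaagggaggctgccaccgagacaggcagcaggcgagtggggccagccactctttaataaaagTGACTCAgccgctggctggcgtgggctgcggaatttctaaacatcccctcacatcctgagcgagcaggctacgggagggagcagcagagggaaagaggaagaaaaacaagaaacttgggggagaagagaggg
CSPG4: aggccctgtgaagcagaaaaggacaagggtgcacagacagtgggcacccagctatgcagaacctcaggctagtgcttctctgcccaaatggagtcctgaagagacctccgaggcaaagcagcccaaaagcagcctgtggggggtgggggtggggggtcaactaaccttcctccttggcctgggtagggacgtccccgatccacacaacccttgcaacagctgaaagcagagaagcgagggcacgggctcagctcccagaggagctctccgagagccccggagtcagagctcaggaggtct
RGS5: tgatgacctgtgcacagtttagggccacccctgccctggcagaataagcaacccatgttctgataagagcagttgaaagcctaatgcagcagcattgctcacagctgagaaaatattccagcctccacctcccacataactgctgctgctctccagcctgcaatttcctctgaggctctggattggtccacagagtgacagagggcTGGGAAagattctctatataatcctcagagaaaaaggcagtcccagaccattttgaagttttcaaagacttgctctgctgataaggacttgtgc
The AP-1 letters occurred 1 time in the PDGFRA window and 2 times in the PDGFRB window, and in no other window of the 9 genes that have a RefSeq model. They are held by 6.08% of the 19569 windows of the same length at protein-coding genes. The PDGFRB window also held 1 GC box, which 50.6% of all windows hold, and the RGS5 window held 1 RBPJ motif, which 27.8% hold. The CSPG4 window held none of the 5 motifs. The TEAD letters (11.8% of windows) occurred at PDGFA and PDGFD, and the CArG box (1.53%) at PDGFA. These matches describe letters only.

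PDGFRA, the receptor of cardiac fibroblasts, rose in the border zone and was the 1 gene of the 10 that was called, against 2.06% of all genes tested that were called higher. Its CPM, the read count scaled for depth with TMM normalization, was 18.65 at the lowest, 28.42 at the median and 60.27 at the highest at the border. In the remote zone it was 10.47, 13.83 and 16.59. The regions did not overlap, which held for 1.99% of all genes tested in this direction, and 6 of 6 animals had the higher level at the border. The log2 fold change was 1.26 (standard error 0.28, 2.39-fold, adjusted p = 0.0355 by edgeR). A replicate block for the animal gave 1.14 (standard error 0.26), and the adjusted p of 0.0773 by edgeR was no longer under the threshold. Leaving out each animal in turn gave log2 fold changes between 0.99 and 1.42. The gene was called without animal 1322 but not without any of the other 5 (adjusted p from 0.0384 to 0.159 by edgeR). In bulk tissue, more cells of a type and more RNA per cell cannot be told apart.
PDGFRB, the receptor of mural cells, varied more between animals. Its border zone CPM was 47.73, 83.61 and 278.3 at the lowest, median and highest, and its remote zone CPM was 29.61, 48.69 and 86.32. The regions overlapped, with 3 of 6 border zone libraries above every remote zone library. Within animals the difference on the log2(CPM + 0.5) scale was lowest in animal 1322, at -0.57, and highest in animal 1022, at 3.21. The border zone was the higher region in 4 of 6 animals. The log2 fold change was 1.08 (standard error 0.42, adjusted p = 0.147 by edgeR, and 0.237 with the block). Of the PDGFRB CPM summed over the border zone, 41.2% came from animal 1022, and without this animal the log2 fold change was 0.44.

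**Figure D1:**
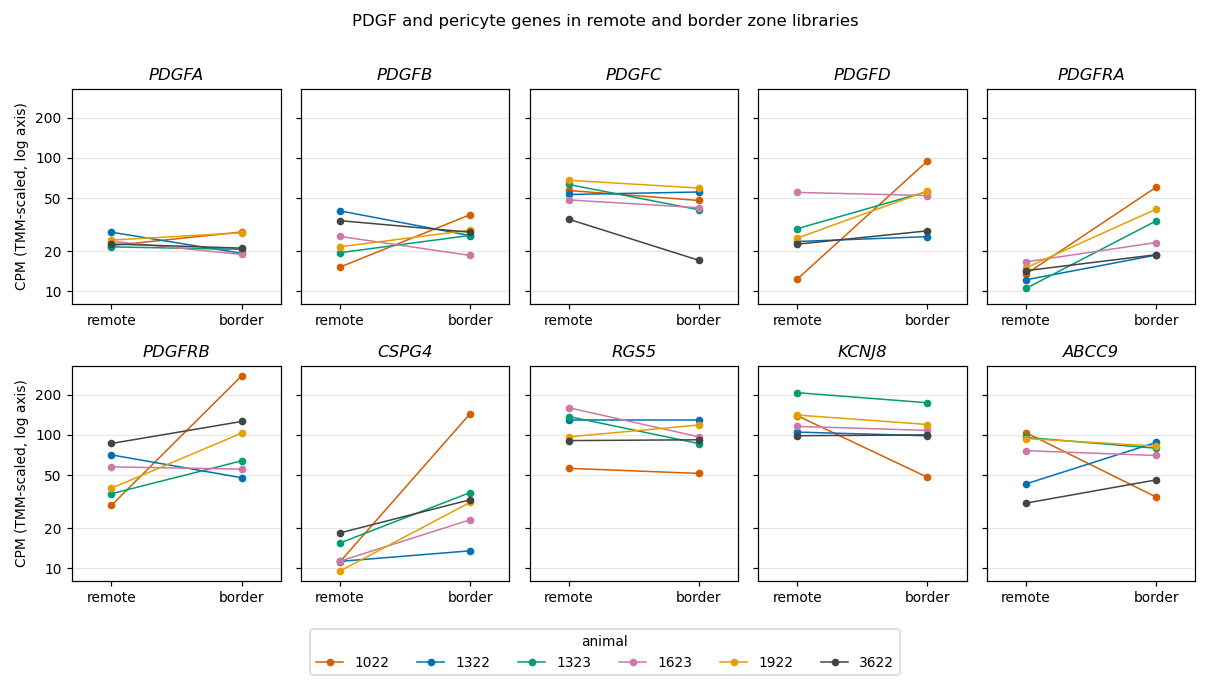
CPM of the 10 genes (log axis) in the remote and border zone library of each animal, with 1 line per animal and 1 panel per gene. The lines of PDGFRA and CSPG4 go up in all 6 animals, whereas those of the other 8 genes go either way.

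Among the ligands, 0 of 4 were called, against 2.07% of all genes tested, and PDGFD had the largest fold change. PDGFD, a ligand of PDGFRB that is secreted in latent form, had a CPM of 25.66, 54.12 and 95.0 in the border zone and of 12.31, 24.3 and 55.12 in the remote zone. The upper end of the remote zone was animal 1623, whose border zone library had 52.22 CPM, and 3 of 6 border zone libraries lay above it. The log2 fold change of PDGFD was 0.90 (standard error 0.36, adjusted p = 0.151 by edgeR), with the border zone higher in 5 of 6 animals, and it was 0.49 without animal 1022.
PDGFB, the endothelial ligand that acts on mural cells, had a CPM of 18.54, 26.96 and 37.54 in the border zone and of 15.16, 23.63 and 40.06 in the remote zone. Its level was higher in the border zone of 3 animals and lower in the other 3, and the log2 fold change was 0.08 (standard error 0.23, adjusted p = 0.86 by edgeR), or -0.15 without animal 1022 and -0.03 without animal 1323. The range of the border zone lay inside that of the remote zone.
PDGFA, a ligand of PDGFRA, was the least variable gene of the set. Its CPM was 18.85, 20.82 and 27.82 in the border zone and 21.5, 23.14 and 27.71 in the remote zone, and its log2 values had a standard deviation of 0.19 over the 12 libraries, against a median of 0.43 over all genes with a symbol. The log2 fold change was -0.07 (standard error 0.14, adjusted p = 0.8 by edgeR).
PDGFC, the other ligand of PDGFRA that is secreted in latent form, had a CPM of 17.05, 45.14 and 59.47 in the border zone and of 34.7, 55.1 and 68.04 in the remote zone. The lowest library of either region was that of animal 3622. PDGFC was lower in the border zone of 5 of 6 animals, and its log2 fold change was -0.30 (standard error 0.26, adjusted p = 0.484 by edgeR), or -0.14 without the border zone library of animal 3622. With the block it was -0.37 (standard error 0.16, adjusted p = 0.161 by edgeR).

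Of the 4 pericyte genes, 1 had a fold change above 0 and 3 below, and 0 were called, against 2.07% of all genes tested. CSPG4, which encodes the NG2 proteoglycan of pericytes and other mural cells, had the largest fold change of the 10 genes, while RGS5, KCNJ8 and ABCC9 had fold changes below 0 on the log2 scale, none of them called. The CPM of CSPG4 was 13.49, 31.93 and 144.9 in the border zone and 9.512, 11.26 and 18.39 in the remote zone. The level was higher at the border in 6 of 6 animals, and 5 of 6 border zone libraries lay above every remote zone library. Its log2 fold change was 1.88 (standard error 0.48, 3.67-fold), and the adjusted p of 0.0526 by edgeR missed the threshold, as did that of 0.0864 with the block. Animal 1022 supplied 51.3% of the CSPG4 CPM summed over the border zone. Without that library alone the log2 fold change was 1.09 and the gene was called (adjusted p = 0.0392 by edgeR), and without both libraries of that animal it was 1.06 and not called. CSPG4 was also called without animal 1322 (log2 fold change 2.01, adjusted p = 0.0464 by edgeR), with library totals and with the Wald test of DESeq2, and was not called in the other 12 of 16 settings, which include leaving out animal 1323, 1623, 1922 or 3622 (adjusted p from 0.114 to 0.165 by edgeR).
RGS5, a regulator of G protein signaling in mural cells, had a CPM of 51.45, 94.38 and 130.5 in the border zone and of 56.14, 113.6 and 160.2 in the remote zone. The regions overlapped, and 3 animals were higher and 3 lower at the border, although animal 1322 had 130.5 CPM in each. Its log2 fold change was -0.22 (standard error 0.26, adjusted p = 0.632 by edgeR), or -0.10 without the border zone library of animal 1022 and -0.09 without animal 1623. Animal 1022, with the highest border zone values of PDGFRB and CSPG4, had the lowest RGS5 value of each region.
KCNJ8, the pore subunit Kir6.1 of the vascular ATP-sensitive potassium channel, had a CPM of 48.08, 104.2 and 174.5 in the border zone and of 98.69, 127.8 and 207.8 in the remote zone. The border zone level was lower in 5 of 6 animals, by 1.53 on the log2 scale in animal 1022 and by at most 0.25 in the other 4, and higher by 0.02 in animal 3622. The log2 fold change was -0.32 (standard error 0.27, adjusted p = 0.489 by edgeR), or -0.17 without the border zone library of animal 1022.
ABCC9 encodes SUR2, the regulatory subunit that pairs with Kir6.1 in vessels and with Kir6.2, the product of KCNJ11, in cardiomyocytes. Its CPM was 34.2, 74.79 and 87.85 in the border zone and 30.76, 85.1 and 104.2 in the remote zone, and the log2 fold change was -0.15 (standard error 0.31, adjusted p = 0.804 by edgeR). This sign was not kept without animal 1022, where the value was 0.11. Within animals the difference was -1.59 at the lowest, in animal 1022, and 1.03 at the highest, in animal 1322. KCNJ8 and ABCC9 lie next to each other on chromosome 5, with 22343 bases between them.
KCNJ11 had a median CPM of 16.01 in the border zone and 24.5 in the remote zone, and the fitted log2 difference was -0.52 (standard error 0.38, adjusted p = 0.415 by edgeR). It was lower at the border in 5 of 6 animals. ABCC8, which encodes the other regulatory subunit SUR1, had a median of 0.163 and 0.511 CPM and did not pass the filter.

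**Figure D2:**
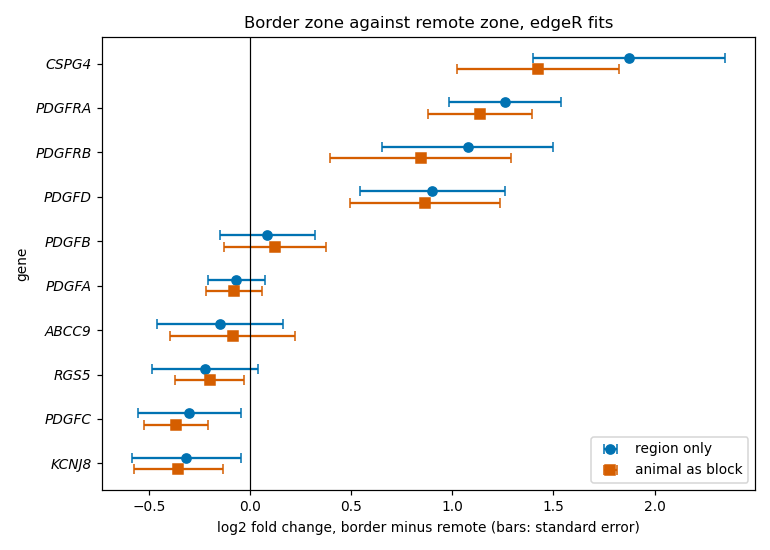
Log2 fold change of each gene, border zone minus remote zone, from the edgeR fit with region only (circles) and with the animal as a block (squares), with standard errors as bars. CSPG4, PDGFRA, PDGFRB and PDGFD lie at or above 0.84 in both fits, and the other 6 genes lie between -0.37 and 0.12.

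Across the set, 5 genes had log2 fold changes above 0 and 5 below, with a median of 0.0067, beside 0.04 over all genes tested. With the block the median was 0.02, and 0 of the 10 genes were called, against 0.296% of all genes (0.289% higher and 0.00722% lower). By edgeR at an unadjusted p under 0.05, 4 of the 10 genes passed, against 24.7% of all genes, and the Wald test of DESeq2 called 2, against 10.3% of the 16688 genes to which it gave an adjusted p. In all 6 animals, 2 of the 10 genes had the higher level at the border, against 11.7% of all genes tested. For 0 of the 10 genes did every border zone library lie below every remote zone library, against 0.701% of all genes.

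**Figure D3:**
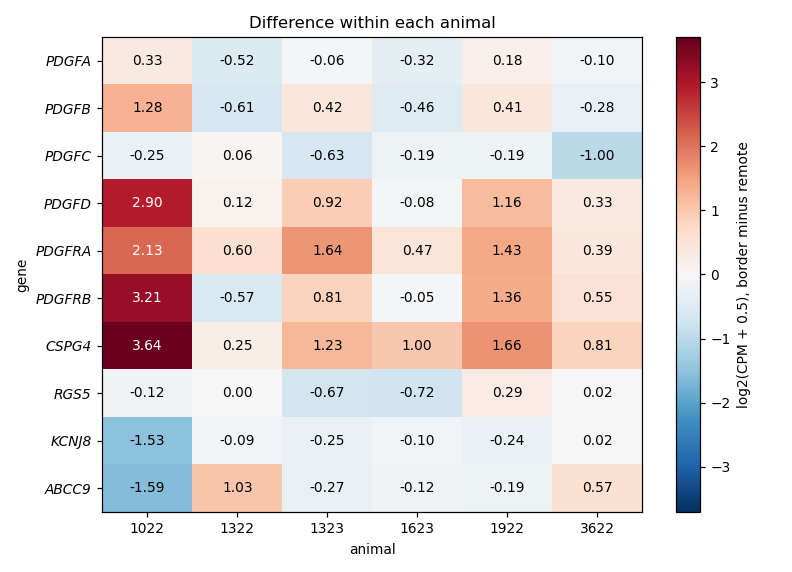
Border zone minus remote zone within each animal, on the log2(CPM + 0.5) scale, for the 10 genes (rows) and 6 animals (columns), colored from blue (lower in the border zone) to red (higher). Animal 1022 has the largest values, from -1.59 for ABCC9 to 3.64 for CSPG4, and animal 1322 has 0.25 for CSPG4 and -0.57 for PDGFRB.

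Ratios of counts within a library do not depend on how libraries are scaled, and they are given here as a description, for pairs chosen after their values were seen. The log2 ratio of CSPG4 to RGS5 was higher at the border in 6 of 6 animals, by 0.26 to 3.82 with a median of 1.59. That of PDGFRA to RGS5 was also higher in 6 of 6, by 0.38 to 2.36 and by 1.19 at the median. The ratio of PDGFRB to RGS5 was higher in 5 of 6, the median difference being 0.88, and lower in animal 1322, by 0.57. In each animal, CSPG4 and PDGFRA stood higher against RGS5 at the border than in the remote wall.
The ratio of CSPG4 to PDGFRB was higher at the border in 6 of 6 animals, by 0.28 to 1.09 on the log2 scale. That of PDGFRA to PDGFRB was higher in 4 of 6, with differences from -1.06 in animal 1022 to 1.19 in animal 1322. The ratio of the ligand PDGFB to its receptor PDGFRB was lower at the border in 6 of 6 animals, with differences from -1.92 to -0.05 and a median of -0.63. The ratio of PDGFD to PDGFC was higher in 6 of 6, by 0.06 to 3.20. The ratio of KCNJ8 to ABCC9 had a median difference of -0.01, with 3 animals higher and 3 lower, from -1.13 in animal 1322 to 0.07 in animal 1022. Of the other ratios computed, PDGFRB to KCNJ8 was higher in 5 animals and lower in 1. PDGFB to PDGFA and RGS5 to KCNJ8 were each higher in 3 animals and lower in 3. The share of other gene pairs with such tallies was not computed.

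Levels of different genes were compared as CPM per kb of exon, with exon lengths from the RefSeq models. PDGFB has no RefSeq model under its symbol and was left out. RGS5 had the highest median over the 12 libraries, 47.26 CPM per kb, followed by KCNJ8 with 44.71, and RGS5 was above KCNJ8 in 8 of 12 libraries. Both stood well above ABCC9 with 11.54, which KCNJ8 exceeded in 12 of 12 libraries. ABCC9, PDGFRB (10.05), PDGFC (8.51), PDGFA (7.82) and PDGFD (6.91) followed, and each down to PDGFA was above the next in 6 to 8 of 12 libraries, so that these neighbors in the order did not differ beyond their spread. PDGFRA (2.79) and CSPG4 (1.99) came last. The middle of the order differed between the regions. At the border the medians of PDGFRB (13.83) and PDGFD (12.94) stood above that of ABCC9 (11.09), and in the remote zone PDGFRB (8.05) stood below ABCC9 (12.62), PDGFC (9.23) and PDGFA (8.12). PDGFD was above PDGFRA in 12 of 12 libraries, and PDGFRA was above CSPG4 in 9 of 12. The genes with the highest levels were thus RGS5 and KCNJ8, and the genes with the largest fold changes, CSPG4 and PDGFRA, had the lowest, by these medians. The border zone library of animal 1022 was an exception, with PDGFRB at 46.04 CPM per kb above RGS5 at 25.13 and KCNJ8 at 19.18, and with CSPG4 at 17.05. KCNJ11 had a median of 6.33 CPM per kb and ABCC8 one of 0.0795.

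**Figure D4:**
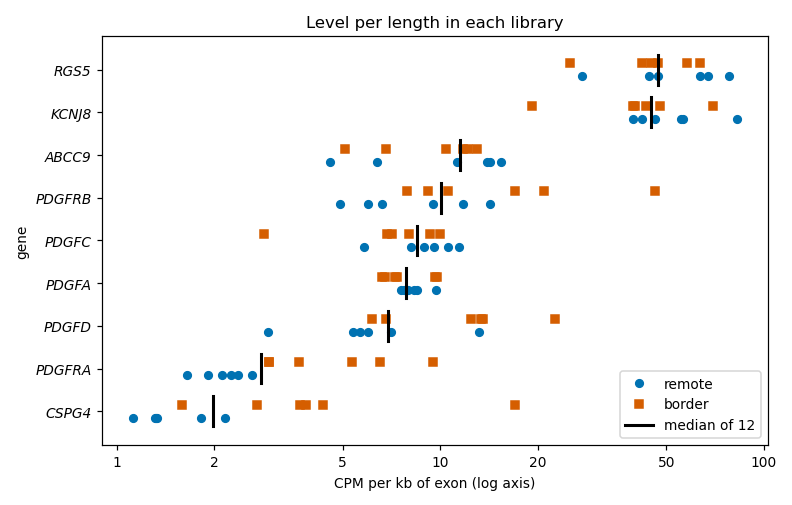
CPM per kb of exon (log axis) of the 9 genes with a RefSeq length, in 6 remote zone (circles) and 6 border zone (squares) libraries, with the median of 12 as a bar. RGS5 and KCNJ8 lie highest, and PDGFRA and CSPG4 lowest.

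Likeness of pattern was measured as the root mean square difference of log2 values, centered on each gene's mean, over the 12 libraries, among 11725 other genes with a symbol. For PDGFRB the nearest genes were SLC38A5 (0.20), an amino acid transporter, CSRP1 (0.22), a cysteine-rich LIM protein of smooth muscle, NOTCH3 (0.23), the Notch receptor of mural cells, and IRAK3 (0.26). For PDGFRA they were ARMH4 (0.21), SH3D19 (0.23), AKAP12 (0.23) and GAS7 (0.25). For RGS5 they were ITM2A (0.28), MED30 (0.29), EFCAB2 (0.30) and ATP1B4 (0.30). Within the set, PDGFRB and CSPG4 were nearest to each other (0.54), as were KCNJ8 and ABCC9 (0.42), PDGFA and PDGFB (0.32), and PDGFD and PDGFRA (0.46). RGS5 was nearer to PDGFA (0.52) and KCNJ8 (0.53) than to either receptor. The measure also depends on how much each gene varies, so a gene that varies little can lie near without sharing a pattern. The standard deviation of log2 values over the 12 libraries was 0.19 for PDGFA, 0.49 for RGS5 and 0.52 for KCNJ8. It was 0.75 for PDGFRA and 0.88 for PDGFRB. These values are descriptions over libraries that come from 6 animals, and they share the scaling of each library.

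Partners of the PDGF pathway were taken as a list of 32 ligand-processing proteases, co-receptors, adaptors, kinases and phosphatases, of which 30 had an identifier and were tested. Of these, 1 was called higher and 0 lower, which is 3.33%, against 2.07% of all genes. The gene called was PLAT, tissue plasminogen activator, which can activate PDGFC. Its CPM was 38.86, 56.98 and 108.2 in the border zone and 15.28, 22.01 and 32.7 in the remote zone, without overlap. PLAT rose by 1.50 on the log2 scale (standard error 0.25, adjusted p = 0.0189 by edgeR), the adjusted p with the block was 0.0717, and 0 partners were called without animal 1323, 1623, 1922 or 3622. PLAU, urokinase, which can activate PDGFD, was at 1.61 on the log2 scale (standard error 0.42, adjusted p = 0.0576 by edgeR) and was higher in 6 of 6 animals.
PLCG1, the phospholipase that docks on activated PDGF receptors, was at 0.83 on the log2 scale (standard error 0.20, adjusted p = 0.0501 by edgeR). PDGFRL, a receptor-like gene, was at 1.51 (standard error 0.38, adjusted p = 0.0513 by edgeR). Each was higher in 5 of 6 animals. FURIN, which cleaves the precursors of PDGFA and PDGFB, had 0.02 (standard error 0.21), and NRP1, a co-receptor, 0.24 (standard error 0.14). The list had 24 fold changes above 0 and 6 below, with a median of 0.23. Over all genes tested, 53.34% lay above 0 and the median was 0.04. In all 6 animals, 8 genes of the list were higher, against 11.7% of all genes tested, and 1, PTPN2 (-0.24), was lower.

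Other pericyte and mural genes numbered 27, of which 26 had an identifier and 24 were tested, since HIGD1B and FOXF2 did not pass the filter. Of the 24, 2 were called higher and 0 lower, which is 8.33%, against 2.07% of all genes, and 0 with the block, against 0.296%. CD248, or endosialin, a receptor of pericytes and fibroblasts, rose by 2.13 on the log2 scale (standard error 0.39, adjusted p = 0.0276 by edgeR). Its CPM was 9.789, 29.75 and 70.38 in the border zone and 5.005, 7.22 and 11.03 in the remote zone, and it was higher in 6 of 6 animals. HEYL, a Notch target gene of mural cells, rose by 1.64 (standard error 0.32, adjusted p = 0.0277 by edgeR), with 16.17, 20.17 and 52.37 CPM against 4.632, 9.297 and 11.63, without overlap. With the block the adjusted p was 0.0694 for CD248 and 0.0773 for HEYL by edgeR, and 0 genes of the list were called without animal 1323, 1623, 1922 or 3622.
NOTCH3 was at 0.85 on the log2 scale (standard error 0.36, adjusted p = 0.168 by edgeR) and higher in 4 of 6 animals, with differences from -0.73 in animal 1322 to 2.97 in animal 1022. MCAM, an adhesion molecule of mural and endothelial cells, had 0.81 (standard error 0.26, adjusted p = 0.0939 by edgeR) and was higher in 6 of 6 animals. ANPEP, an aminopeptidase, had 5.26 (standard error 1.31, adjusted p = 0.0509 by edgeR), with 108.5 CPM at the border of animal 1022 and a border zone median of 2.56. With the block, ANPEP had 3.07 (standard error 0.95, adjusted p = 0.0959 by edgeR). FOXC1, a transcription factor of vessel development, had 1.37 (standard error 0.36, adjusted p = 0.0605 by edgeR). The median of the list was 0.51, beside 0.04 over all genes tested. Of its 24 genes 18 lay above 0, where 53.34% of all genes did. The 6 below 0, with 0 called, were STEAP4 (-0.61), HEY2 (-0.47), VTN (-0.43), NDUFA4L2 (-0.41), EDNRA (-0.33) and ADGRF5 (-0.32). In all 6 animals, 7 genes of the list were higher, against 11.7% of all genes tested, and 1, VTN, was lower. HEY2, EDNRA and ADGRF5 were each lower in 5 of 6 animals.

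**Figure D5:**
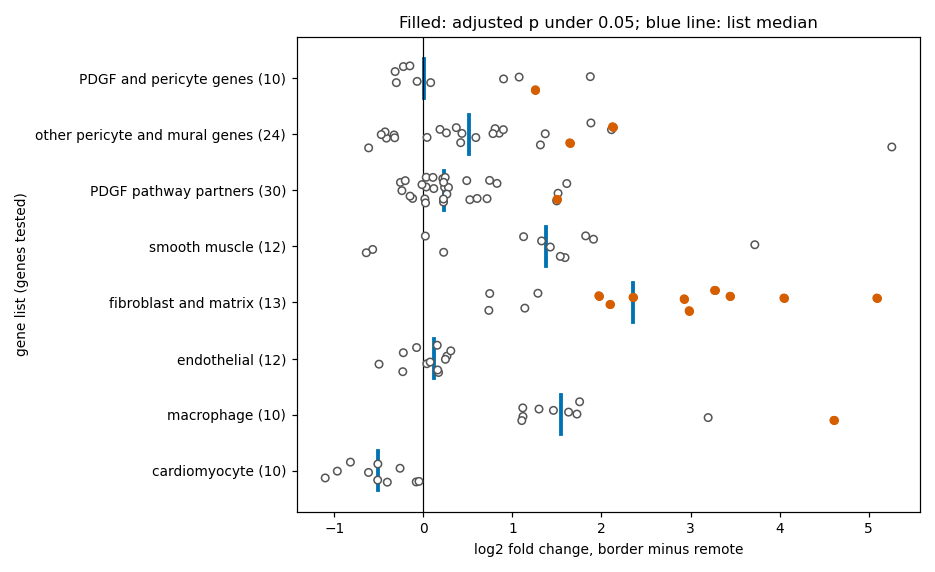
Log2 fold change (border zone minus remote zone) of each tested gene by list, with called genes filled and the list median as a line. The fibroblast and matrix list has a median of 2.36 and 9 filled points, and the 10 PDGF and pericyte genes have a median near 0 and 1.

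Marker lists of other cell types are given for comparison. Their counts are to be read against all genes tested, of which 2.07% were called, 0.296% with the block, and 53.34% had fold changes above 0. All 13 fibroblast and matrix genes tested had fold changes above 0, 9 of them were called (1 with the block), and their summed CPM ranged over 3545 to 71340 at the border and over 1280 to 3104 in the remote wall. No marker of this list was at 0 in any library, and animal 1022 had the highest border zone sum, with 12440 CPM in the next library. COL1A1, the main fibrillar collagen, had a fold change of 4.05 on the log2 scale (standard error 0.81, adjusted p = 0.0295 by edgeR). With the block this was 2.82 and not called (adjusted p = 0.0821 by edgeR), and the difference within animal 1022 was 7.01. PDGFRA and CD248 are also expressed by fibroblasts, and the part of this list in their differences was not tested.
All 10 macrophage genes lay above 0, with 1 called (0 with the block) and summed CPM of 137.3 to 1697 at the border (animal 1022, with 423.9 in the next library) and of 123.0 to 264.2 in the remote wall. All 10 cardiomyocyte genes tested lay below 0, with 0 called, a median of -0.51, and summed CPM of 11700 to 65190 at the border and of 52760 to 95020 in the remote wall. Among the 12 smooth muscle genes, 10 lay above 0 with a median of 1.38 and 0 were called, and ACTA2 was at 1.91 on the log2 scale (standard error 0.62, adjusted p = 0.0973 by edgeR). With the block, ACTA2 was at 1.19 (adjusted p = 0.238 by edgeR). The 2 genes below 0, SMTN (-0.57) and TPM2 (-0.64), were lower in 6 of 6 animals, and 3 genes of the list were higher in 6 of 6. The summed CPM of the 12 genes was 8927 to 18110 at the border and 9694 to 14090 in the remote wall. Most of this sum was DES, desmin, which cardiomyocytes also express, with a median of 13550 CPM at the border and its lowest border value, 5121 CPM, in animal 1022. ACTA2 (926.7 CPM), TAGLN (1084 CPM) and MYH11 (308.6 CPM) had their highest border values in that animal, so the sum does not follow these genes. The 12 endothelial genes had a median of 0.12, with 0 called and sums of 471.9 to 670.2 CPM against 356.8 to 823.7 CPM, and PECAM1 had 0.17 (standard error 0.20). The part of these lists in the values of the 10 genes was not tested.
Of the smaller lists, 5 lymphocyte, 5 adipocyte and 4 platelet genes were tested, with medians of 0.65, 1.08 and 1.03 and 0 called in each (1 adipocyte gene with the block). Of these lists, MS4A1, ADIPOQ, LEP and PPBP were at 0 in some library.

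Without the border zone library of animal 3622 alone, PDGFRA remained called (log2 fold change 1.38, adjusted p = 0.0434 by edgeR). Without that of animal 1022 alone it was also called, with a log2 fold change of 0.99 (adjusted p = 0.0364 by edgeR), beside CSPG4. Without both libraries the log2 fold change of PDGFRA was 1.10 (adjusted p = 0.0333 by edgeR), that of CSPG4 was 1.03 and no longer called (adjusted p = 0.101 by edgeR), and that of PDGFRB was 0.34 (adjusted p = 0.686 by edgeR). These settings were chosen after the data were seen.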

How the data were processed

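RNA was sequenced from the border and remote zone of 6 pigs, 12 libraries in all. The deposited values are raw counts of reads per gene, which the authors made from poly(A)-enriched, nondirectional libraries with STAR on Sscrofa11.1 and featureCounts. Reads were aligned to the pig genome only. Options for reads matching several genes are not given in the sources used here, and without strand, overlapping genes cannot be told apart (PDGFD spans DDI1 on the opposite strand, with 0 PDGFD exon bases inside it). Treatment of single animals was not used.

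Counts were filtered by filterByExpr, scaled by TMM and tested with edgeR 4.0.16 (limma 3.58.1, R 4.3.3) by the robust quasi-likelihood test on region alone. Standard errors were obtained as the fitted log2 fold change over the square root of F. Values within animals are log2(CPM + 0.5). Symbols came from a table that paired 15623 of the 35682 identifiers. Exon lengths and windows came from RefSeq on Sscrofa11.1 (Python 3.11.15, pandas 2.3.3). The fits were tried on simulated counts, drawn with no effect of the animal and no library set apart. These data differ in both, so that trial does not give their error rates. Alternatives were the animal as a block, the Wald test of DESeq2 1.42.0, other scalings, filters and pseudocounts, no mitochondrial genes, and each animal left out.

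A number names 1 animal and thus pairs its libraries. The correlation of deviations from the mean of each region, across genes, was 0.345 on average over the 6 pairs (from -0.0302 to 0.572), where genes are not independent replicates. No libraries agreed within sampling noise (lowest chi-square 26.33 per gene over 66 pairs). Precision is limited by 6 animals, and depth was 15130210 to 31618680 counts per library.

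The genes and lists were chosen with earlier results of these data known. Named genes were the 10 members, KCNJ11, ABCC8, PLAT, PLAU, FURIN, NRP1, NOTCH3, MCAM, ACTA2, COL1A1 and PECAM1, of the 2 lists the 4 genes of lowest p (fewer than 3 were called), and the 4 genes nearest to PDGFRB, PDGFRA and RGS5. MYH7 had no identifier by that table. The result of 1 further marker list is not reported here. Genes singled out beside these were named after their values were seen.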

Additional observations from a re-analysis of the deposited data

Results flagged for a closer look

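In each region, the gap of the highest or lowest of the 6 libraries to its nearest neighbor was divided by the group's range, for the log2 values of the 10 genes. Of 20 groups, 1 had a library set apart, and chance sets apart about 1 in 20 groups. This was PDGFC in the border zone library of animal 3622, with 17.05 CPM against 40.83 CPM in the next border zone library, a gap of 0.697 of the range. The remote zone library of the same animal also had the lowest PDGFC value of its region, 34.7 CPM. That border zone library had the smallest total and listed the most genes, and their part in the value was not tested.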

How the results depend on the processing

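Of the genes called between the regions, 287 in all, the count was 41 with the animal as a replicate block, 1724 with the DESeq2 Wald test, 1551 with library totals only, 139 with no filter, 149 with at least 10 counts in every library, 156 without the border zone library of animal 3622 and 157 without those of animals 1022 and 3622. With each animal left out it ranged from 0 (without 1623, with 2662 genes at an unadjusted p under 0.05 by edgeR, and without 3622, with 2448) to 519 (without animal 1322), with 3 without 1323, 15 without 1922 and 163 without 1022. Of the 10 genes, 1 was called, against 0 with the replicate block, 2 with the DESeq2 Wald test, 3 with library totals, and 0 to 2 with an animal or a single border zone library left out. Of the pathway partners, 1 was called, against 0 with the replicate block, 5 with DESeq2, 5 with library totals, and 0 to 4 with each animal left out. Of the other mural genes, 2 were called, against 0 with the replicate block, 7 with DESeq2, 11 with library totals, and 0 to 4 with each animal left out. The partners and the mural genes had 0 calls without animal 1323, 1623, 1922 or 3622. With library totals the median over all genes was 0.32 in place of 0.04, and over the 10 genes 0.33 in place of 0.0067. With each animal left out the median of the 10 ran from -0.08 to 0.12.

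Of 160 values of single genes of the set under the alternatives, 139 changed neither sign nor call, 6 lost and 5 gained the call, and 10 changed sign, and no such value was past the threshold. The call of PDGFRA was lost with the replicate block (1.14) and without animal 1022, 1323, 1623, 1922 or 3622, and kept in the other 10 settings. With library totals PDGFA (0.23), RGS5 (0.0149) and ABCC9 (0.0438) changed sign, and PDGFRB (1.50) and CSPG4 (2.30) were called. With each animal left out, PDGFA ran from -0.16 to 0.00936, PDGFB from -0.15 to 0.24 and ABCC9 from -0.36 to 0.11. PDGFB was -0.03 without the border zone library of animal 1022 and -0.0623 without those of animals 1022 and 3622, where ABCC9 was 0.11. Among the other genes named, PLAT, CD248, HEYL and COL1A1 also lost the call with the replicate block, and the block changed no other call of the 10 genes. With library totals 3 of the 10 genes were higher at the border in all 6 animals in place of 2, and with DESeq2 size factors 2 were lower in all 6 in place of 0. Levels per length moved by less than the spread between libraries. Apart from the fewer samples or genes in some fits, the cause was not tested.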

Other observations

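ABCC8, which did not pass the filter, had 6.357 CPM at the border of animal 3622 and at most 1.767 CPM in any remote zone library, with 0 counts in at least 1 border zone library. HIGD1B and FOXF2, a pair of pericyte genes, were each at 0 counts in some library and were not tested. The ATP-sensitive potassium channel genes stood in unlike proportions per length, with medians of 44.71 CPM per kb for KCNJ8, 11.54 for ABCC9, 6.33 for KCNJ11 and 0.0795 for ABCC8. In the border zone library of animal 1022, KCNJ11, KCNJ8 and ABCC9 had the lowest values of their region, 4.163, 48.08 and 34.2 CPM, and its summed cardiomyocyte markers were also the lowest of the region, 11700 CPM.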
